A study of Mus musculus with 15 samples.

Results

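The proteasome genes of mouse microglia were followed over a month after 1 dose of an antibody to TREM2, a receptor of microglia. They were taken by name: every symbol in the count table that starts with Psma, Psmb, Psmc, Psmd, Psme, Psmf or Psmg followed by a digit, without pseudogenes ending in -ps. This gave 50 of the 32372 symbols, and 49 of them were among the 14260 genes with enough counts to test. Psmb11, the beta subunit of the thymus proteasome, was not tested, with 18 unique molecular identifiers (UMIs, each standing for 1 captured RNA molecule) in all 15 mice together. Psmc3ip matched by name although its product is a recombination factor and not a part of the proteasome.

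The mice were 15 male hTfR KI animals on C57BL/6J, 3.5 months old, all of which carried the apical domain of the human transferrin receptor (TfR) in the mouse TfR gene. Each received a single 10 mg/kg dose of ATV:4D9, an anti-mouse TREM2 antibody whose Fc also binds human TfR, or of the control ATV:RSV with the same kind of Fc. Cells of the cortex and hippocampus were enriched with CD45 beads and sequenced with the droplet-based 10x method in 5 groups of 3 mice. The ATV:RSV mice were all taken at day 1, the ATV:4D9 mice at day 1, 7, 14 or 28, so that the later days lacked a matched control and the 3 ATV:RSV mice served for all of them. The comparisons ask which proteasome genes changed after the dose and for how long.

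The proteasome is the protease that takes apart ubiquitin-tagged proteins. Its 20S core is a stack of rings of alpha and beta subunits (genes Psma and Psmb), of which beta5 (Psmb5), beta1 (Psmb6) and beta2 (Psmb7) cut peptide bonds, and the 19S cap (Psmc and Psmd) binds, unfolds and feeds in the substrate. Interferons are known to induce replacements for these cutting subunits, beta5i (Psmb8), beta1i (Psmb9) and beta2i (Psmb10), which form the immunoproteasome, together with the PA28 alpha and beta activator (Psme1 and Psme2), and the peptides made this way are loaded onto MHC class I. In microglia, macrophages of the brain, immunoproteasome subunits are among the genes of interferon responses.

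The genes of the immunoproteasome lie close to those of antigen presentation. In mm10, Psmb9 (chr17:34181987-34187764, minus strand) and Tap1 (chr17:34187553-34197225, plus strand), a chain of the transporter that carries peptides to MHC class I, stand head to head, and their RefSeq start sites are 226 bases apart. By GENCODE, Psmb8 (chr17:34197721-34201454, plus strand) begins 495 bases after the end of Tap1. The RefSeq start sites used below for Psmb8 (34198195) and Psme1 (55578494) differ from GENCODE, and both promoter windows lie inside the GENCODE spans given here. Psme1 (chr14:55578123-55581529, plus strand) and Psme2 (chr14:55587441-55591113, minus strand) face each other across 5911 bases. Psmb10 lies apart, at chr8:105935735-105938444 on the minus strand.

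Promoter sequences were at hand for 42 of the 50 members (RefSeq, GRCm38.p6, 300 bases each, from 250 before to 50 after the start site). They are shown for the immunoproteasome genes and constitutive counterparts whose windows held 1 of 4 motifs searched on both strands: GAAANNGAA (interferon response core), TTCNNNGAA (STAT site), TGACNNNGC (antioxidant response core) and CCAAT. Capitals mark the match, which in these 5 windows overlapped no other motif. The windows are chr17:34197945-34198244 (plus) for Psmb8, chr17:34187281-34187580 (minus) for Psmb9, chr14:55578244-55578543 (plus) for Psme1, chr14:54617946-54618245 (minus) for Psmb5 and chr11:70525107-70525406 (plus) for Psmb6.
Psmb8: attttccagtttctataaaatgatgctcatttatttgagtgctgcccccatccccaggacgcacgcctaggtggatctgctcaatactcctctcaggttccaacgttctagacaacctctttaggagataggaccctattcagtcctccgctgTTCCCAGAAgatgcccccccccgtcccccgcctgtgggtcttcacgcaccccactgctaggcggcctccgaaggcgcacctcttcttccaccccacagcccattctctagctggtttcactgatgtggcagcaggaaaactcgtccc
Psmb9: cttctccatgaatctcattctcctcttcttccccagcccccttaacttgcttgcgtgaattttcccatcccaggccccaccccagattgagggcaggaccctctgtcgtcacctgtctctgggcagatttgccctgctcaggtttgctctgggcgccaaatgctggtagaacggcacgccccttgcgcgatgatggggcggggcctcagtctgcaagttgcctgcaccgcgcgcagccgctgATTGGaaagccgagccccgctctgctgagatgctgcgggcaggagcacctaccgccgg
Psme1: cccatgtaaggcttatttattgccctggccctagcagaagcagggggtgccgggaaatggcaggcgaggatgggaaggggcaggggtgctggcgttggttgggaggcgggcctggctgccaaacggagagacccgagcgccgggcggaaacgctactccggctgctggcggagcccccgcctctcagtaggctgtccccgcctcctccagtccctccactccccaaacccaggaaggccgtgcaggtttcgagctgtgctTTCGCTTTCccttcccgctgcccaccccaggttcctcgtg
Psmb5: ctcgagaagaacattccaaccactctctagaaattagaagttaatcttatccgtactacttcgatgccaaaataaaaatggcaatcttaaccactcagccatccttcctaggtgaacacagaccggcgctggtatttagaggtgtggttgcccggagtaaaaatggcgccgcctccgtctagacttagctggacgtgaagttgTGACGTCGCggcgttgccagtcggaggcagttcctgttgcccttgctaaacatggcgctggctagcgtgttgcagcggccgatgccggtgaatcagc
Psmb6: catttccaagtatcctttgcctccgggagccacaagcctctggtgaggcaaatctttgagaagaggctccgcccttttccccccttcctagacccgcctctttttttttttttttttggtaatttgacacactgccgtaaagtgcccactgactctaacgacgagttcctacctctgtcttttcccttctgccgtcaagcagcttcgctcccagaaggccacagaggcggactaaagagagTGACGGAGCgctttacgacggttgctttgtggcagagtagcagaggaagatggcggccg
The Psmb8 window held the STAT letters 97 bases before its RefSeq start site. The Psme1 window held the interferon response core, beginning 10 bases after its RefSeq start site. The Psmb9 window, which runs through most of the Tap1 promoter, held only a CCAAT box. Psmb5 and Psmb6 each held the antioxidant response core, and the windows of Psmb10 and Psme2 held none of the 4 motifs. No promoter sequence was at hand for Psmb7, so it was not searched. Among all 32851 RefSeq promoters, 8.56% held the interferon response core, 8.3% the STAT site, 12.4% the antioxidant response core and 37.4% CCAAT. Of the 25 constitutive 20S and 19S genes with a promoter, 4 held the interferon response core (Psmb3, Psmb4, Psmc2 and Psmd4), 4 the antioxidant response core, 1 the STAT site and 10 CCAAT. These shares, 16.0%, 16.0%, 4.0% and 40%, are to be read against 9.76%, 14.0%, 9.55% and 41.1% of all 27025 genes with a promoter.

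Each mouse gave 32341960 to 70307384 UMIs from 5667 to 7596 cells. All 8 microglia markers were detected in every group, with a summed level of 13153 to 14641 CPM (UMIs of a gene per 1000000 UMIs of the mouse) at day 1 of ATV:4D9 and 19761 to 21075 in the controls, and 7 of the 8 were called lower. This plain CPM is used for the marker sums. The CPM of single proteasome and pathway genes given below were also scaled between mice by TMM, a normalization of the library totals. The median cell held 8202 to 8996 UMIs at day 1 of ATV:4D9 against 4975 to 5750 in controls. The mitochondrial share of a median cell was 3.96 to 4.50% against 3.11 to 3.38%, and 19.6 to 27.4% of cells carried a UMI of the proliferation genes Mki67 or Top2a against 0.397 to 0.684%. The 5 monocyte markers summed to 13.9 to 18.0 CPM against 4.51 to 11.5, with Plac8 and Vcan higher and Ccr2 lower. The 6 neutrophil markers summed to 98.3 to 103 against 196 to 208, with Ly6g at 0 and only 1 of the 4 tested called lower. Of other cell types, all 5 neuron and all 6 oligodendrocyte markers were called lower at day 1, with sums of 7.99 to 12.02 against 15.6 to 22.1 CPM and of 29.2 to 32.3 against 48.4 to 65.6 CPM, and the 6 astrocyte markers, 1 of them called lower, summed to 116 to 121 against 221 to 271 CPM. The endothelial markers summed to 11.96 to 16.2 against 20.1 to 26.2 CPM (2 called higher, 1 lower) and the B cell markers to 205 to 223 against 229 to 278 CPM (1 lower). Of the 6 markers of border-associated macrophages 2 were called higher, and of the 2 dendritic cell markers tested 1 was called higher. The part of these differences in the day 1 results was not tested, beyond leaving out cells as given below. The number of cell barcodes found in both mice was 5 to 27 in each of the 105 pairs of mice.

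At day 1 after ATV:4D9 nearly every proteasome gene was higher. In limma-voom fits to UMI sums per mouse, 47 of the 49 tested members were higher than in ATV:RSV at an adjusted p below 0.05, against 34.7% of all genes, and 1 was lower, against 34.6%. The median member differed by 0.92 on the log2 scale, against -0.05 for all genes tested, and 22 members more than doubled. In 47 members all 3 treated mice lay above all 3 controls, as in 35.7% of all genes, and in 1 all 3 lay below, as in 35.9%. The member that was lower was Psme2b and the one not called was Psme4, both of which return later. Without the cells carrying Mki67 or Top2a 48 members were again called in either direction, as were 9472 of 14119 genes. Without cells that held markers of another cell type or the most UMIs 48 members were called too, as were 9652 of 13938 genes. All p-values of single genes are from limma-voom with Benjamini-Hochberg adjustment over all genes tested, and they measure the spread between mice.

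**Figure D1:**
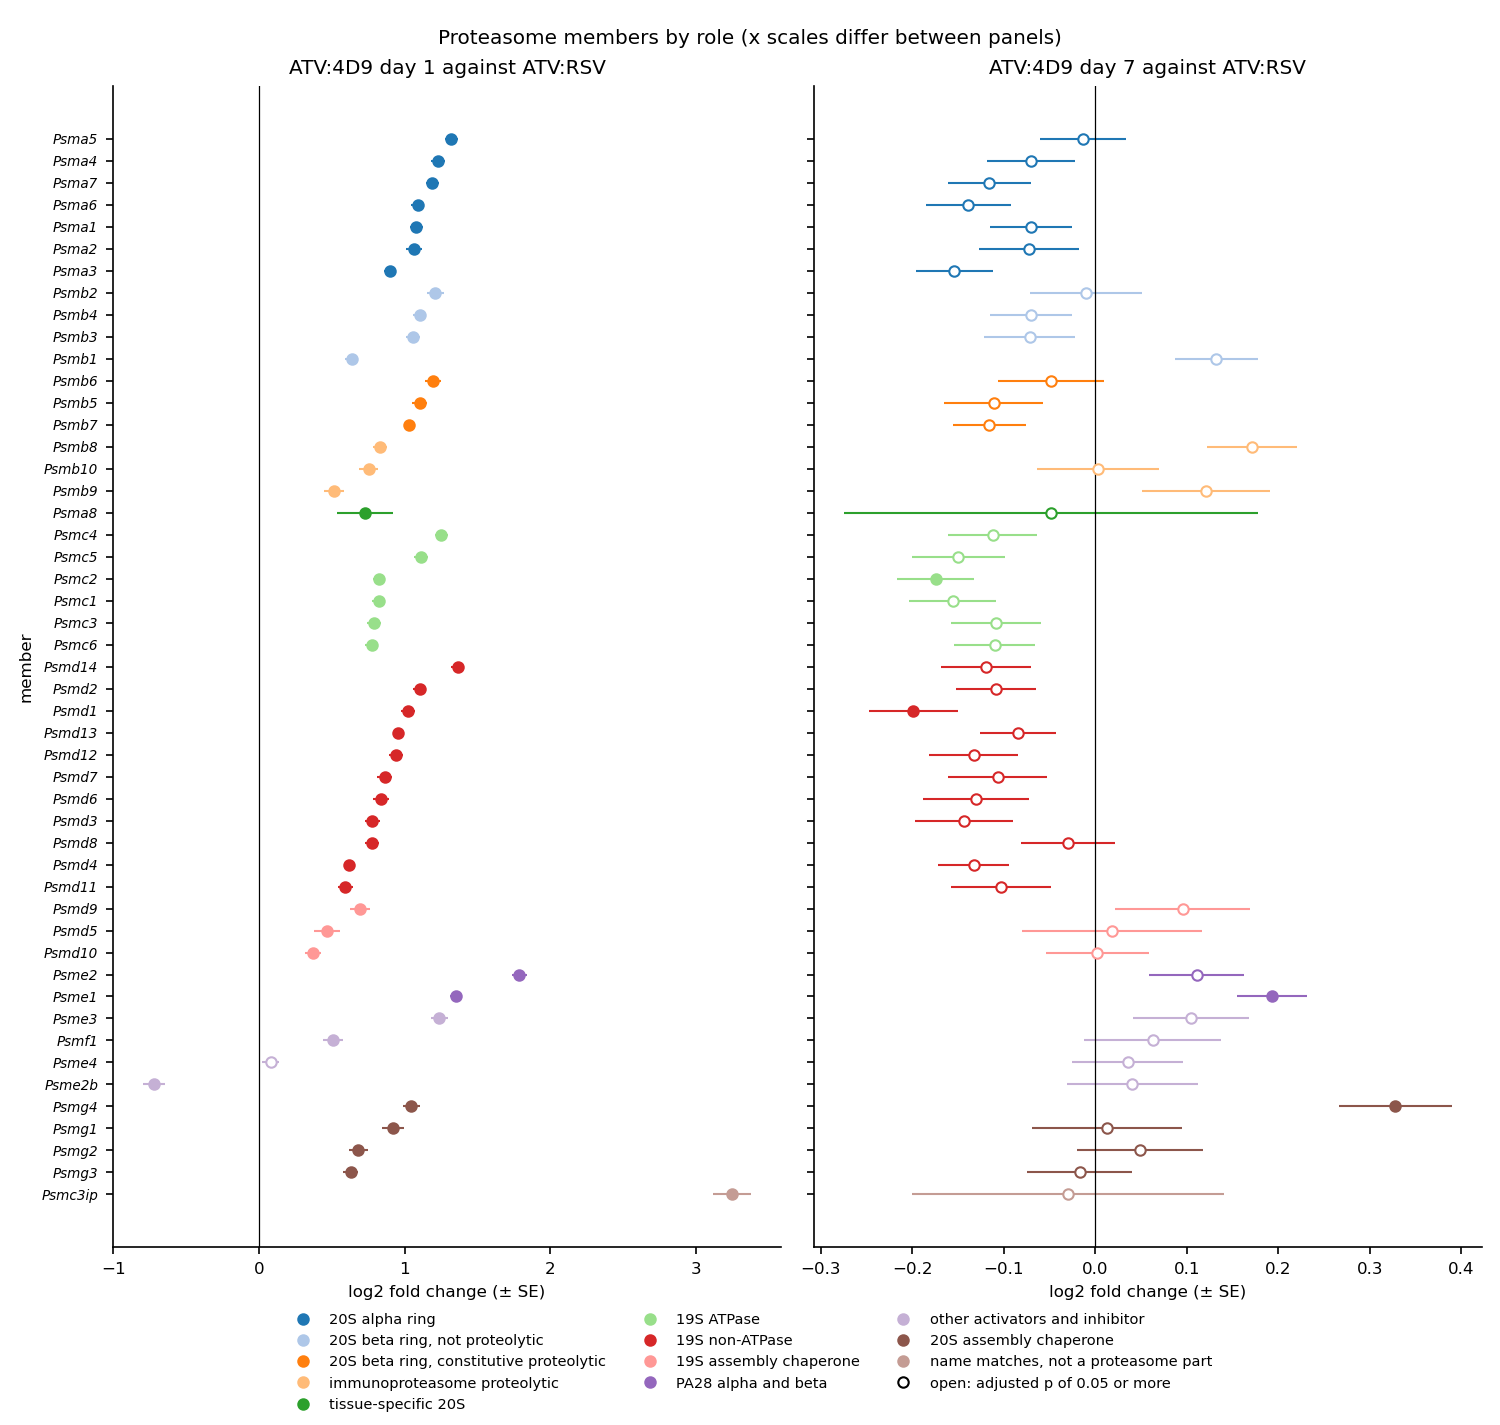
Log2 fold change (± SE) of each of the 49 tested members at day 1 (left) and day 7 (right) of ATV:4D9 against ATV:RSV, n = 3 mice per group, coloured by role, with open circles where the adjusted p was 0.05 or more. At day 1 all 31 constitutive 20S and 19S subunits lie right of 0, and at day 7 all but Psmb1 lie left of it while the 5 immunoproteasome members lie right of it or near 0.

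All 14 constitutive 20S genes rose, by a median of 1.10 on the log2 scale, and all 17 genes of the 19S cap rose, by a median of 0.84, and together these 31 ranged from 0.59 to 1.37. Psmb5, the chymotrypsin-like subunit, stood at 125, 126 and 128 CPM in the controls and at 261, 261 and 292 at day 1 of ATV:4D9. By TMM-scaled CPM it had more than doubled in each treated mouse (log2 1.10 ± 0.05 SE, adjusted p = 4.32e-11). Its lowest log2 change in the 17 other settings tried was 0.86, less than a doubling. Psmb6, the caspase-like subunit, went from 121, 124 and 136 to 288, 277 and 307 CPM (log2 1.20 ± 0.06, adjusted p = 4.16e-11), and Psmb7, the trypsin-like subunit, from 67.3, 66.3 and 69.4 to 135, 138 and 142 (log2 1.03 ± 0.04, adjusted p = 2.59e-12). The control and treated ranges of these 3 genes were far apart.

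The largest constitutive changes were in Psmd14, the deubiquitinase of the 19S lid, and Psma5, an alpha ring subunit. Psmd14 stood at 40.1, 41.8 and 41.7 CPM in the controls and at 102, 107 and 109 at day 1 of ATV:4D9 (log2 1.36 ± 0.05, adjusted p = 9.37e-13). Psma5 went from 85.6, 82.3 and 87.6 to 211, 205 and 223 (log2 1.32 ± 0.05, adjusted p = 1.21e-12). The 6 ATPases of the 19S base, which unfold the substrate, rose by 0.77 to 1.25 on the log2 scale. The smallest rise among the constitutive subunits was that of Psmd11, a scaffold subunit of the lid, at 0.59.

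The immunoproteasome members rose as well, the cutting subunits by 0.52 to 0.83 and the PA28 pair by 1.35 and 1.79 on the log2 scale. Psmb8 stood at 231, 235 and 248 CPM in the controls and at 414, 406 and 448 at day 1 of ATV:4D9 (log2 0.83 ± 0.05, adjusted p = 4.23e-10). Psmb10 went from 109, 106 and 116 to 183, 174 and 203 (log2 0.76 ± 0.07, adjusted p = 4.04e-08), and Psmb9 from 83.0, 80.9 and 88.7 to 123, 110 and 129 (log2 0.52 ± 0.07, adjusted p = 6.30e-06). No treated mouse overlapped a control in these 3 genes, yet none of them doubled, and each had a smaller log2 change than the constitutive subunit it replaces. Psme1, its alpha chain, went from 179, 174 and 185 to 454, 457 and 463 CPM (log2 1.35 ± 0.04, adjusted p = 1.21e-13), and Psme2, its beta chain, from 90.1, 85.7 and 94.7 to 305, 300.02 and 329.9 (log2 1.79 ± 0.05, adjusted p = 1.37e-13). Psme2 had the largest rise of any proteasome component in the list.

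**Figure D2:**
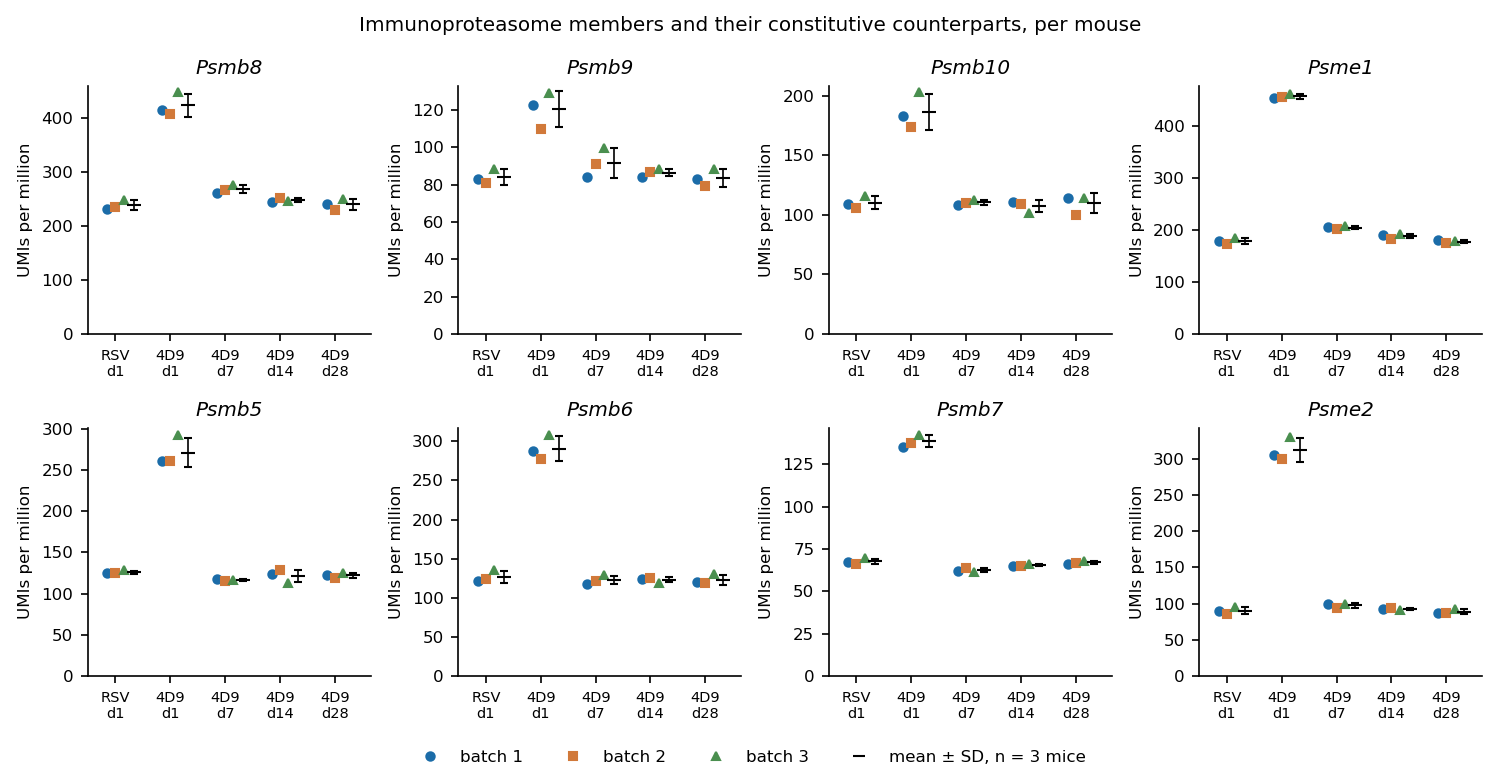
CPM scaled by TMM (y axis, from 0) of 8 genes in each of the 15 mice, by group on the x axis, with the batch as colour and shape and the mean ± SD beside the points. The top row holds Psmb8, Psmb9, Psmb10 and Psme1, and the bottom row the constitutive counterparts Psmb5, Psmb6 and Psmb7 and the second PA28 chain Psme2. Each gene is highest at day 1 of ATV:4D9, and the other 4 groups lie close together.

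The other activators and the inhibitor did not move together. Psme3, the PA28 gamma chain of the nucleus, went from 18.0, 16.6 and 16.8 to 38.8, 41.1 and 41.6 CPM (log2 1.24 ± 0.06, adjusted p = 2.66e-11). Psme4, which encodes the activator PA200, stood at 27.0, 27.4 and 24.6 in the controls and at 26.6, 29.0 and 28.1 at day 1 of ATV:4D9. By TMM scaling its ranges overlap (log2 0.08 ± 0.06, adjusted p = 0.221). With library size alone as the scaling its value was -0.16 (adjusted p = 0.0264), so no direction is given for it. Psmf1, the inhibitor PI31, rose by 0.51 ± 0.07 on the log2 scale, from 12.4, 11.7 and 13.6 to 17.6, 17.2 and 18.8 CPM.

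Psme2b, an intronless copy of Psme2 on chromosome 11 (chr11:48945354-48946190, minus strand), was the 1 member that fell. It stood at 26.17, 23.64 and 25.34 CPM in the controls and at 14.97, 15.80 and 14.78 at day 1 of ATV:4D9 (log2 -0.72 ± 0.07, adjusted p = 2.74e-07), while Psme2 itself more than tripled by TMM scaling. By day 7 it was back at 27.7, 26.9 and 23.4. Its value is uncertain, since reads may be shared with Psme2 and since the annotation overlaps Gm12185 and 9930111J21Rik1 on the same strand. In those genes the levels were 1.52 to 1.81 CPM at day 1 of ATV:4D9 against 1.06 to 1.55 in the controls for Gm12185, and 1.95 to 2.09 against 3.67 to 4.87 for 9930111J21Rik1.

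All 7 assembly chaperones rose. The 4 chaperones of the 20S core (Psmg1 to Psmg4) rose by 0.63 to 1.05 on the log2 scale. The 3 chaperones of the 19S base rose by 0.37 (Psmd10, known as gankyrin), 0.47 (Psmd5) and 0.70 (Psmd9). Psmd10 went from 30.6, 31.2 and 30.6 to 38.9, 39.3 and 41.6 CPM, and Psmd5 from 18.0, 15.3 and 14.5 to 21.5, 22.9 and 21.7. The treated mice lay above the controls in both genes, and these were the smallest called rises among the members. With library size alone they were 0.13 for Psmd10 and 0.23 for Psmd5, and those of Psmf1 and Psmb9 were 0.27 and 0.28, all still called. Psmc3ip, the name match that is no subunit, rose most of all, from 3.60, 4.10 and 3.51 to 31.5, 38.2 and 37.4 CPM (log2 3.25 ± 0.13), and the testis subunit Psma8, counted in 3668 UMIs in all, rose by 0.73 ± 0.19.

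Summed over genes, the 31 constitutive subunits made up 31.5 ± 0.67 of every 10000 UMIs in the controls (SD, n = 3) and 53.2 ± 0.83 at day 1 of ATV:4D9. The 3 immunoproteasome cutting subunits went from 4.57 ± 0.19 to 6.53 ± 0.31 and the PA28 pair from 2.85 ± 0.10 to 6.89 ± 0.06 per 10000 UMIs. Counted per cell instead, the constitutive subunits went from 19.4 ± 1.33 to 49.6 ± 1.98 UMIs, the cutting immunosubunits from 2.81 ± 0.21 to 6.09 ± 0.34, and the PA28 pair from 1.76 ± 0.15 to 6.43 ± 0.32. The ranges of the treated and control mice did not overlap in any of these sums.

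**Figure D3:**
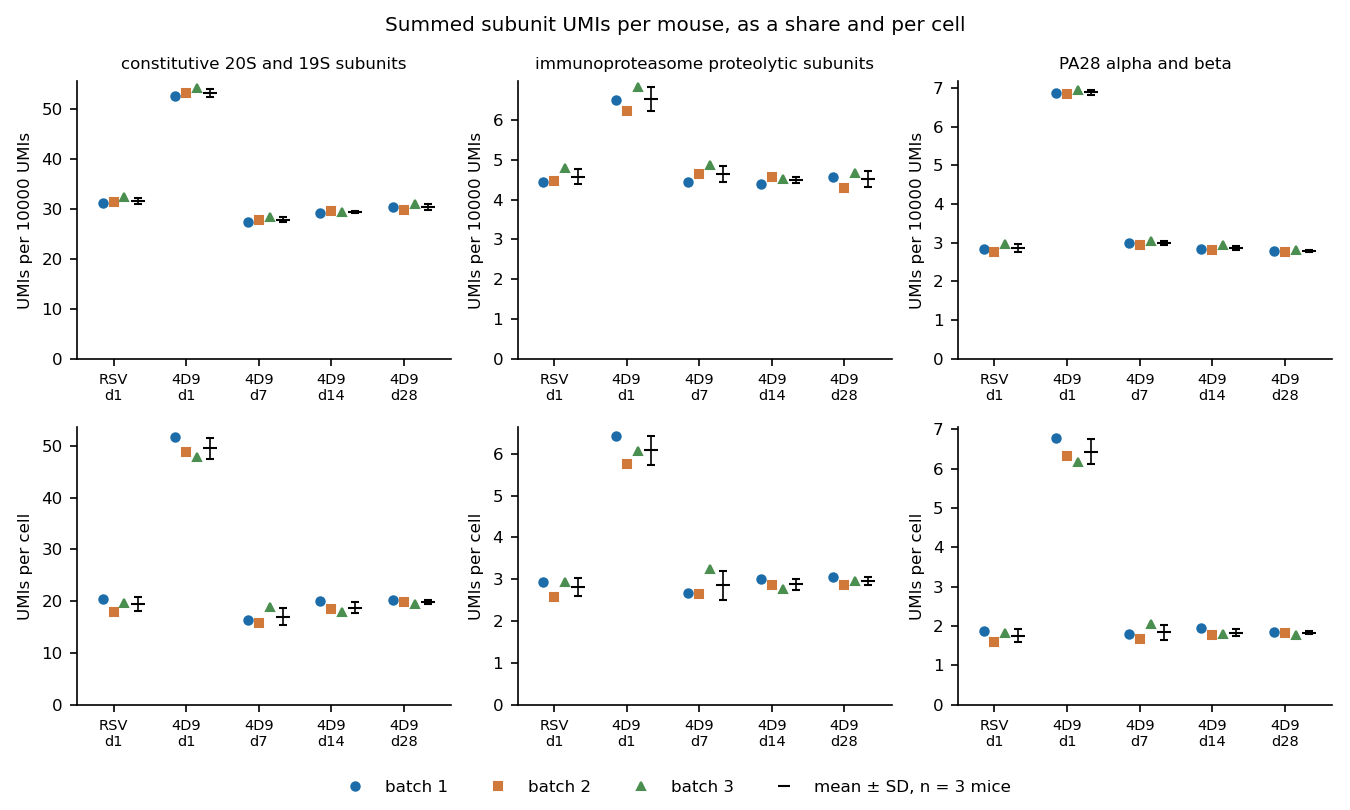
Summed UMIs of the 31 constitutive subunits, the 3 immunoproteasome cutting subunits and the PA28 pair in each mouse, as UMIs per 10000 UMIs (top) and UMIs per cell (bottom), by group, with the mean ± SD. All sums peak at day 1 of ATV:4D9, and the constitutive share at days 7, 14 and 28 is below the lowest control in every mouse, lowest at day 7.

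Every cell was thinned to 3385 UMIs, which left out 3.93 to 17.8% of cells per mouse as too shallow. The loss was 3.93 to 5.79% at day 1 of ATV:4D9 and 8.69 to 17.8% in the controls. Among the cells kept, the median cell held 17 UMIs of the constitutive subunits in each of the 3 mice at day 1 of ATV:4D9, against 10 or 11 in the controls. The 10th percentile at day 1 was 11, at or above the control median, and the 90th was 24 or 25 against 15 or 16. For the 5 immunoproteasome members the median was 4 against 2 and the 90th percentile 8 against 5, while the 10th was 1 in all 6 mice. In the submitters' clustering, 18416 of the 20459 cells at day 1 of ATV:4D9 fell in cluster 2, which held 247 to 512 cells of each other group. The remaining day 1 cells, in clusters 0 and 1, held 36.8 and 40.4 constitutive UMIs per 10000 on average against 30.9 and 32.3 in control cells of the same clusters. In those clusters the cutting immunosubunits stood at 4.18 and 4.31 per 10000 against 4.51 and 4.60, with ranges of mice that overlap. The PA28 pair stood at 3.38 and 3.75 against 2.77 and 2.90, without overlap. Clusters were drawn on the same counts, so these values are a description.

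At day 7 nearly all of this had gone. Against day 1 of ATV:4D9, 47 members were lower at day 7 (against 33.9% of all genes) and 1, Psme2b, was higher (against 33% of all genes). A single test over the 5 groups called 48 of the 49 members, against 66.5% of all genes, with Psme4 the exception.

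Against ATV:RSV, 2 members were called higher (2.99% of all genes) and 2 lower (0.996%), by at most 0.33 on the log2 scale, and 22 members had an unadjusted p below 0.05, as did 16.4% of all genes. Psme1 stood at 206, 202 and 207 CPM against 179, 174 and 185 in the controls (log2 0.19 ± 0.04, adjusted p = 0.00742). Psmg4, a 20S assembly chaperone, stood at 42.12, 38.95 and 40.63 against 32.998, 32.11 and 31.81 (log2 0.33 ± 0.06, adjusted p = 0.0049). All 3 treated mice lay above all controls in both genes, and Psmg4 was called in each of the 17 other settings tried. The 2 that fell belong to the 19S cap. Psmd1, a large scaffold subunit, stood at 57.8, 54.8 and 52.2 against 62.1, 65.2 and 61.6 (log2 -0.20 ± 0.05, adjusted p = 0.0319), and the ATPase Psmc2 at 81.9, 81.5 and 85.6 against 94.8, 92.0 and 94.4 (log2 -0.17 ± 0.04, adjusted p = 0.0286). Psmd1 lost the call in 8 of the 17 other settings and Psmc2 in 7. Psme1 lost it in 3, with library size alone (log2 0.10, adjusted p = 0.117), with only the 2 groups compared (adjusted p = 0.0654) and without control mouse 2 (adjusted p = 0.0501).

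The direction was shared more widely than the calls. Of the 31 constitutive subunits, 30 had a negative value at day 7, with a median of -0.11 on the log2 scale against -0.00 for all genes, and in 22 of them all 3 treated mice lay below all controls, as in 10.2% of all genes. Over all members, 5 had every treated mouse above the controls, against 11% of all genes. The constitutive exception was Psmb1, at 0.13. The 5 immunoproteasome members had values from 0.00 for Psmb10 to 0.19 for Psme1. Psmb10 differed by -0.001, 0.049 and -0.040 within batches, so no direction is given for it. Psmb8, at 261, 266 and 276 CPM against 231, 235 and 248, lay above all controls but just missed the call (log2 0.17 ± 0.05, adjusted p = 0.0639). With the batch as a block 8 members were called, 3 higher and 5 lower, and Psmb8 was among those called (adjusted p = 0.0139), while the calls over all 14260 genes went from 568 to 1014. With library size alone 26 members were called, 1 higher and 25 lower, against 1199 of all 14260 genes, and the median of all genes moved to -0.10. The neutrophil markers summed to 226 to 343 CPM at day 7 against 196 to 208 in the controls, with only 1 of the 4 tested called higher. The microglia markers summed to 18070 to 18517 against 19761 to 21075, with 3 of 8 called lower. The neuron markers summed to 10.6 to 13.2 against 15.6 to 22.1 and the endothelial markers to 14.7 to 16.1 against 20.1 to 26.2, and the mitochondrial share was 3.48 to 4.04% against 3.11 to 3.38%. Their part in these values was not tested, although the same 4 calls stood without cells that held markers of another type or the most UMIs.

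At days 14 and 28 no member was called in either direction by limma-voom, edgeR or DESeq2. At day 14, 0.386% of all genes were called higher and 0.014% lower, and 3 members had an unadjusted p below 0.05, as did 5.4% of all genes. All 3 mice lay above the controls in 1 member (5.29% of all genes) and below them in 13 (5.16%). The constitutive median was -0.05, and Psmg4, at 40.5, 35.4 and 34.1 CPM, lay above all controls (log2 0.18 ± 0.06, adjusted p = 0.511). As a share of all UMIs the constitutive subunits were still low, at 29.16, 29.46 and 29.36 per 10000 at day 14 and 30.3, 29.8 and 30.8 at day 28 against 31.02, 31.2 and 32.3 in the controls, so that every mouse lay below them. This share is scaled by library size alone, with which the median of all genes was -0.05 at day 14 and -0.02 at day 28, against -0.10 and -0.06 for the median constitutive subunit. At day 28 the fit called 0% of all genes higher and 0% lower, though 571 genes and 1 member had an unadjusted p below 0.05. Psmb8 was at 241, 228 and 250 CPM and Psme1 at 180, 175 and 179, within or next to the control range.

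Ratios within a mouse set each immunoproteasome cutting subunit against its constitutive counterpart, free of the scaling between libraries. Psme1 and Psme2 were set against Psme3, which is another activator chain and not a subunit that they replace. At day 1 the ratio of Psmb8 to Psmb5 differed from that of the control mouse of the same batch by -0.22, -0.26 and -0.34 on the log2 scale, and at day 7 it was higher by 0.26, 0.30 and 0.28. The ratio of Psmb9 to Psmb6 differed by -0.69, -0.71 and -0.63 at day 1 and by 0.05, 0.20 and 0.25 at day 7. That of Psmb10 to Psmb7 differed by -0.26, -0.34 and -0.23 at day 1 and by 0.11, 0.11 and 0.13 at day 7. So in all 3 pairs each day 1 mouse lay below every control and each day 7 mouse above every control. In the PA28 genes the ratio of Psme2 to Psme3 was higher by 0.65, 0.50 and 0.49 at day 1 and near the controls at day 7, by 0.01 on average. The ratio of Psme1 to Psme3 was above every control at both days, but within batches it differed by 0.23, 0.09 and 0.01 at day 1 and by 0.16, 0.10 and 0.01 at day 7. Its mean difference of 0.09 at day 7 was 0.05 without control mouse 1, and that of 0.11 at day 1 was 0.07 without that mouse and 0.21 without cells carrying Mki67 or Top2a.

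With 3 mice against 3, an exact two-sided permutation test cannot go below 0.1, and every separated pair of groups gave that value (0.2 after adjustment over 20 tests). An exact permutation of the 5 groups within batches, over all 14400 arrangements, gave p = 6.94e-05 for Psmb8 to Psmb5, the smallest possible, 0.000764 for Psmb9 to Psmb6 and 0.0112 for Psmb10 to Psmb7. For Psme1 and Psme2 to Psme3 the exact p was 0.00438 and 0.0273. Adjusted over these 5 permutation tests, the p-values were 0.000347, 0.00191, 0.014, 0.00729 and 0.0273. At day 14 the ratio of Psmb8 to Psmb5 still differed by 0.10, 0.07 and 0.17 within batches, with all 3 mice above the controls. At day 28 the means of the 3 beta ratios were within 0.06 of the control mean, but single mice were not all within the control range. The ratio of Psmb8 to Psmb5 differed by 0.09, 0.04 and 0.04 within batches, and that of Psmb10 to Psmb7 by 0.09, -0.10 and 0.01, each with 2 mice above all controls and the latter with 1 below.

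**Figure D4:**
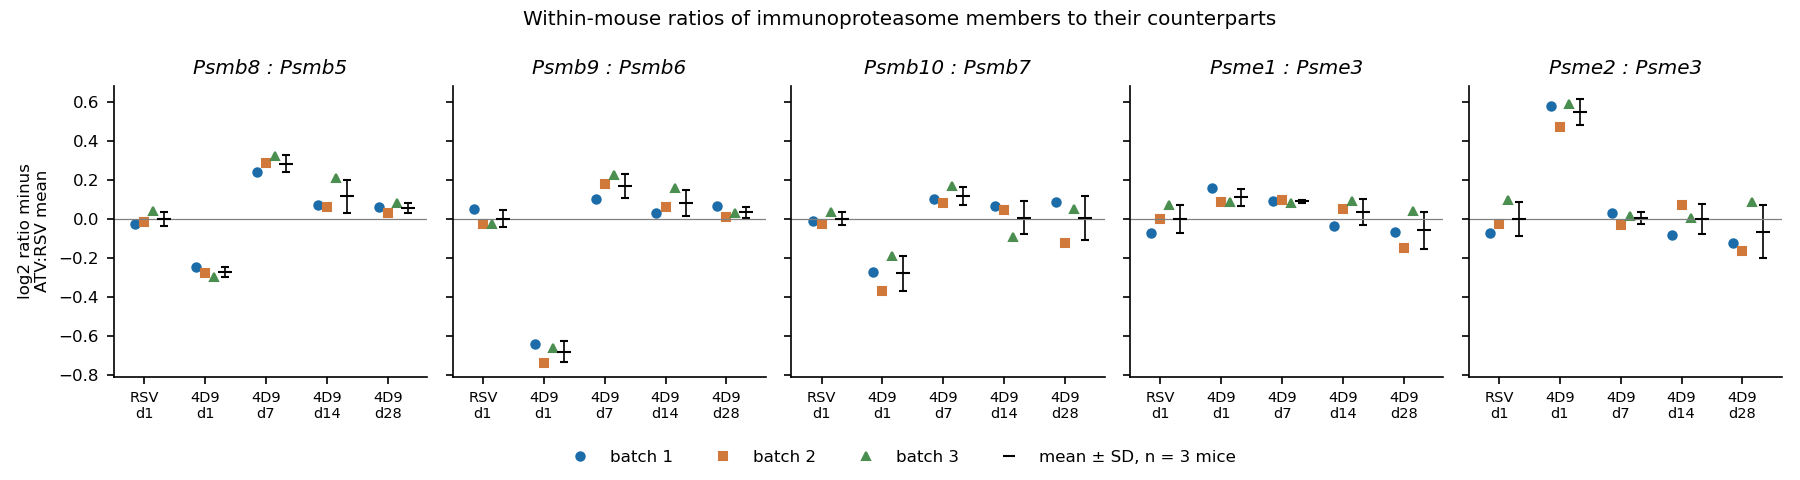
Log2 ratio within a mouse of each immunoproteasome cutting subunit to its constitutive counterpart, and of Psme1 and Psme2 to Psme3, minus the mean of the 3 ATV:RSV mice (y axis). Mice are shown by group, with the batch as colour and shape and the mean ± SD beside the points. The 3 beta ratios lie below 0 at day 1 and above 0 at day 7, and the ratio of Psme2 to Psme3 is high at day 1 alone.

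Genes around the proteasome are given in 6 lists, whose counts at day 1 are to be read against the 34.7% of all genes called higher and the 34.6% called lower. Of 11 proteasome-associated genes outside the name rule, 7 were higher at day 1 and 2 lower. The 2 highest were Uchl5, a deubiquitinase of the 19S cap (log2 1.39), and Sem1, its smallest subunit (1.07). Pomp, the maturation factor of the 20S core, rose by 1.01 and the ubiquitin receptor Adrm1 by 0.64. The lower genes were Akirin2, which takes proteasomes into the nucleus (-0.78), and the ubiquitin ligase Ube3c (-0.36). Of 9 ubiquitin shuttles and parts of the unfoldase, 7 were higher, among them the unfoldase Vcp (0.76), and the shuttle Ubqln2 was lower (-0.59). Vcp was also the 1 gene of that list called at day 7, at -0.17 (adjusted p = 0.0218). Of 6 ubiquitin and E1 genes, 4 were higher, among them Rps27a (0.73), and 1 was lower. Rps27a, which encodes ubiquitin fused to a ribosomal protein, was the 1 gene of that list called at day 7 (0.46 ± 0.04, adjusted p = 3.23e-06) and at day 14 (0.24 ± 0.04, adjusted p = 0.00868).

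In the list of 9 genes that control subunit transcription through NRF1 and NRF2, 3 were higher and 4 lower, which is near the share over all genes. Nfe2l2, which encodes NRF2, rose by 0.34 on the log2 scale, whereas Nfe2l1, which encodes NRF1, had a value of 0.15 that did not pass the test (adjusted p = 0.105). The 2 highest of the list were Maff (2.05), a small Maf partner, and Syvn1 (0.38), and the 2 lowest Mafk (-0.58) and Mafg (-0.37).

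Of 12 genes of peptide transport and MHC class I, 11 were higher at day 1. Nlrc5, the transactivator of class I genes, rose by 3.01 ± 0.21 on the log2 scale, from 1.55, 0.68 and 0.88 to 8.62, 7.17 and 8.81 CPM, and the chaperone Calr by 1.55. Tap1, which shares its start region with Psmb9, went from 31.6, 31.4 and 34.5 to 76.1, 76.2 and 78.8 CPM, a log2 change of 1.25 ± 0.06 against 0.52 ± 0.07 for Psmb9. Tap2, the other chain of the transporter, rose by 0.19, and the tapasin gene Tapbp by 0.34. At day 7, 5 of the 12 were called higher, against 2.99% over all genes, namely B2m (0.53), H2-K1 (0.71), H2-D1 (0.93), Nlrc5 (1.19) and Tap1 (0.35). Of 6 interferon regulators, 5 were higher at day 1 and 1, Irf8, was lower (-0.13). Irf7 rose most (4.15), while Irf1 rose by 0.20. Scaling by library size alone moved the median of all genes at day 1 from -0.05 to -0.29, a shift larger than the values of Tap2 and Irf1. Their own values under that scaling were not tabulated. Of the interferon list 1 gene was called at day 7. At day 14 Rps27a was the only gene of the 6 lists called, and the lists were not compared with each other by a test.

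**Figure D5:**
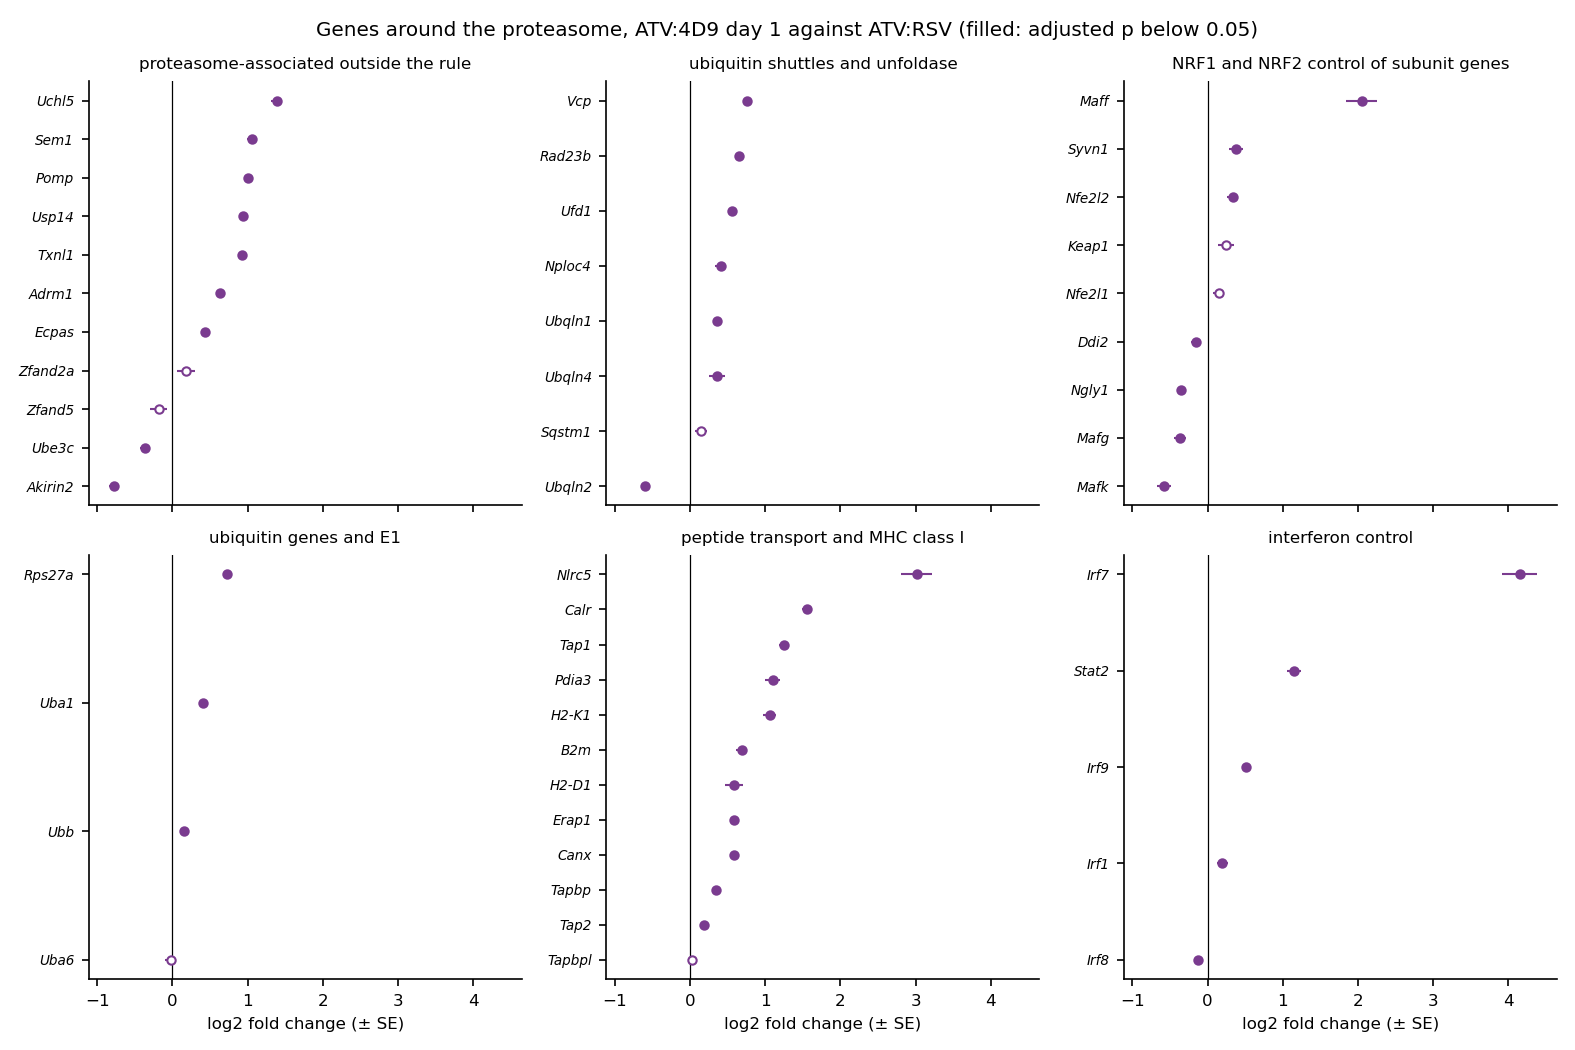
Log2 fold change (± SE) at day 1 of ATV:4D9 against ATV:RSV, n = 3 mice per group, for the genes reported here from 6 lists around the proteasome, which is not every gene of each list, with filled circles where the adjusted p was below 0.05. The lists of peptide transport and MHC class I genes and of ubiquitin shuttles lie mostly right of 0, and the NRF1 and NRF2 list lies on both sides.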

How the data were processed

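Single-cell RNA of 15 mice was analysed in 5 groups of 3, grouped by the labels, with replicate numbers taken from the batch. The deposited matrix holds raw UMI counts, made by the authors with Cell Ranger (4.0.0 per the submitters' processing notes; the paper names other versions) on mm10 and with filtering and clustering in Seurat. The deposited cell table gives each cell's mouse, UMIs, genes, cluster and the percentage of mitochondrial UMIs as the authors computed it. All 102043 deposited cells were kept, since they had been filtered before deposit, and the sums over the matrix equalled the deposited UMIs in all of them.

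UMIs were summed per mouse and gene. After a filter with filterByExpr (at least 10 UMIs, 15 in total) 14260 genes were left, and the sums were scaled by TMM. Each was fitted by limma-voom with 1 mean per group over the 15 mice, and p-values were adjusted by Benjamini-Hochberg over these genes, with calls at an adjusted p below 0.05. The versions were R 4.3.3, edgeR 4.0.16 and limma 3.58.1. CPM of the members and of the pathway genes used the library total of the tested genes scaled by TMM. CPM of the cell type markers and of Gm12185 and 9930111J21Rik1 used the raw library total. Ratios within a mouse were compared by exact two-sided permutation (Python 3.11.15). The code was tested on simulated data. No pair of mice of the same group agreed within counting error.

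The members and lists were chosen with earlier results of these data known. Genes named with values were the 5 immunoproteasome members, their counterparts, Psme3, Psme4 and Psmf1, the 3 highest and 3 lowest of the other members called at day 1, all members called later or not tested, and in each pathway list the 2 highest and 2 lowest called plus set genes. Some genes of these lists are counted but not reported here by name. Psma8, Psmb1, Psmd9, Psmd11, H2-K1, H2-D1 and B2m were named after their values were seen. The batches each held all 5 groups, per the labels, so replicate numbers pair the mice. Deviations of mice from their group means correlated by 0.10 on average within a batch (30 pairs, -0.22 to 0.37) and by -0.05 between batches.

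The alternatives were edgeR, DESeq2 1.42.0, library size alone, DESeq2 size factors, no filter or at least 50 UMIs in 3 mice, a batch block, only the groups compared, cells thinned to 3385 UMIs, leaving out each mouse of the groups compared, leaving out the 5156 cells with a UMI of Mki67 or Top2a, and leaving out the 5857 cells with at least 3 markers of another cell type or in the top 5% of UMIs, which stands in for a doublet caller. Promoters and start sites came from RefSeq (GRCm38.p6) and gene positions from GENCODE M21, both of the same build as mm10. A further control animal is not analysed here.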

Additional observations from a re-analysis of the deposited data

Results flagged for a closer look

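The difference from control changed between day 1 and day 7 of ATV:4D9 in 48 of the 49 tested members. The same was true of 9538 of all 14260 genes tested. Both counts are from the limma-voom test of day 7 against day 1, in which the control mice cancel out.

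The 3 cutting subunits of the immunoproteasome changed against their counterparts in opposite directions at the 2 days. The ratio of Psmb8 to Psmb5 differed from control by -0.27 on the log2 scale at day 1 and by 0.28 at day 7. For Psmb9 to Psmb6 the values were -0.68 and 0.17, and for Psmb10 to Psmb7 they were -0.28 and 0.12. At each day all 3 mice moved in the same direction from the controls. The difference between the 2 days was not tested on its own, only within the exact permutation test over the 5 groups.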

How the results depend on the processing

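At day 1, 48 members were called in every setting but library size alone (49), and all 31 constitutive subunits were higher throughout, although that scaling moved their median from 1.03 to 0.79 and the median of all genes from -0.05 to -0.29. Psme4 reversed there, at -0.16. The calls over all genes at day 1 went from 9872 to 10649 with library size alone and to 8546 of 13016 with thinned cells. The 4 members called at day 7 became 7 with DESeq2, 26 with library size alone, 8 with batch as a replicate block, 1 with only the 2 groups compared, 2 with thinned cells, and 1 to 3 when 1 mouse of the 2 compared groups was left out (1 without ATV:RSV mouse 2). Over all genes the 568 calls became 871 with DESeq2, 1199 with library size alone, 448 of 13268 with only the 2 groups compared and 517 of 13016 with thinned cells. They became 331 to 489 when 1 mouse was left out, with 331 without ATV:RSV mouse 2. Psmd1 lost its call in 8 of the 17 alternatives, Psmc2 in 7 and Psme1 in 3, whereas Psmg4 kept it in all 17. The block raised the calls over all genes from 568 to 1014 at day 7, from 57 to 122 at day 14 and from 0 to 2 at day 28, and moved no other count of called members by over 1.5 times. Thinning moved the day 1 fold of the summed shares to 2.30 for PA28, 1.62 for the constitutive subunits, 1.76 for their 3 cutting subunits and 1.62 for all members. Without cells with Mki67 or Top2a the PA28 fold was 2.53, and the log2 ratios of Psme1 and Psme2 to Psme3 were 0.21 and 0.64. Leaving out 1 mouse gave PA28 folds of 2.38 to 2.46. The causes were not tested. With 3 mice against 3 no ratio could go below an exact p of 0.1 at a single day.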
